A study of Mus musculus with 6 samples.

Results

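The genes described here encode the La protein (Ssb) and its La-related proteins (Larp1, Larp1b, Larp4, Larp4b, Larp6 and Larp7). The 7 members were found by their symbols among the 55549 rows of each table, of which 55335 carry an Ensembl gene ID. The family was chosen by measured values of the same comparison: Ssb was among the large increases of the whole data set, and the other 6 members were added by name. Values of the members are therefore given as descriptions, with no p-value, and where the number of members past the threshold is given, nothing is read from it. RNA was sequenced from mouse embryos at the early 2-cell stage, in 3 control libraries and 3 libraries of embryos that were moved at 4 h after fertilization into culture medium with 40 µM ethylparaben (EtP), an ester added to products to preserve them. Per the series, most exposed embryos went no further than this stage, and the question is which transcripts differed in them. Both groups are whole embryos; no other treatment, genotype or strain is named in the labels, nor the hour of collection, the number of embryos per library or whether libraries came from separate cultures. The p-values below are set against the spread of these libraries alone, and that spread may be technical.

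La-module proteins bind RNA ends and the messages that carry particular end structures. La itself holds the run of uridines at the 3′ end of new RNA polymerase III transcripts, such as tRNA precursors, U6 and the Y RNAs, and shields it from exonucleases. LARP7 does the same for the 7SK RNA, the scaffold that keeps the elongation kinase P-TEFb inactive. LARP1 binds capped messages that start with a pyrimidine tract (TOP messages) under control of mTORC1. LARP4 binds poly(A), and LARP4 and LARP4B both bind the poly(A)-binding protein. LARP6 binds collagen messages. In the mouse, the early 2-cell embryo still holds many messages stored by the egg while its own genome is being switched on.

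Of the RNA polymerase III transcripts looked up, Rpph1, the RNA subunit of RNase P, and Rmrp have annotated ends without a terminal T. The annotated ends of 3 others show the feature that La and LARP7 recognise, and only these 3 are printed. Their last 30 bases are given 5′ to 3′ as DNA letters from GENCODE M21 on mm10. The terminal run of T is in capitals. Rn7sk, the 7SK RNA, lies at chr9:78175303-78175633 on the minus strand. The Y RNAs Rny1 and Rny3, which associate with La and the Ro protein, lie at chr6:47788069-47788180 on the minus strand and chr6:47781624-47781725 on the plus strand.
Rn7sk: ggcgctgcatgtggcagtctgcctttcTTT
Rny1: cttctcactactgcacttgactagtcTTTT
Rny3: gctcccactgcttcacttgaccagccTTTT
These RNAs lack a poly(A) tail, and the libraries were primed with oligo-dT. Rn7sk had 102, 115 and 71 estimated counts in the control libraries and 36, 47 and 34 in the EtP libraries. The EtP libraries all lay below the controls in counts, and after scaling the change was -0.56 ± 0.32 on the log2 scale (SE), which did not pass the test (edgeR quasi-likelihood test, adjusted p = 0.21). Rny1 had 1 count in a single control library and Rny3 had none in any library. These RNAs were looked up after the values of the other genes had been seen.

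Ssb lies on mouse chromosome 2 (69861562-69871846, plus strand) with 6 annotated transcripts, and Larp7 on chromosome 3 (127536714-127553349, minus strand) with 4. All 7 members had an entry in the RefSeq promoter table (GRCm38.p6). The 250 bases before the annotated start are shown for the 2 members that were higher in every EtP library both in TPM and in counts scaled by the trimmed mean of M-values (TMM). Capitals mark matches to 3 motifs, searched on both strands. The GC box was spelled GGGCGG and is bound by factors of the SP family. The CCAAT box was spelled CCAAT and is bound by NF-Y. The cyclic AMP response element (CRE) was spelled TGACGTCA. Of the other motifs searched, the E-box was spelled CACGTG, while the TATA box was spelled TATAAA, and neither window holds them. The windows are chr2:69861312-69861561 (plus strand) and chr3:127553350-127553599 (minus strand).
Ssb: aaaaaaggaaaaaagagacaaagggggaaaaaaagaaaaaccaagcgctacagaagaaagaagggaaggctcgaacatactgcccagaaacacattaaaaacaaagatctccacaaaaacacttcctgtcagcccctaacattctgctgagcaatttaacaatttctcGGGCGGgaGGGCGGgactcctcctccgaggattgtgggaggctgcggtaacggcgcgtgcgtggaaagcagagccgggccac
Larp7: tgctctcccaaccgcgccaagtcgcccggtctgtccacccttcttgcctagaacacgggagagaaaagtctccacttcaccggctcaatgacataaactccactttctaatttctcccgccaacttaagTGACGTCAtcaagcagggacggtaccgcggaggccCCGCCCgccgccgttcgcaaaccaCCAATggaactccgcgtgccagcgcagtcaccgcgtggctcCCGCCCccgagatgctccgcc
The Ssb window holds 2 GC boxes, at bases 82 to 77 and 74 to 69 before the start, and no match to the CCAAT box or the CRE. The Larp7 window holds 2 GC boxes on the opposite strand, a CCAAT box at bases 62 to 58 and a CRE at bases 121 to 114; none of these matches overlap. Of 32817 promoter windows of the same length, 32.7% hold a GC box, 16.7% hold 2 or more, 33.8% hold a CCAAT box and 1.55% hold the CRE. The Larp7 window was the only member's window with the CRE. Its GC content was 61.6% and that of the Ssb window 49.6%, against a median of 52.4%. These matches are letters in a window; binding was not measured.

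Ssb was high in all 3 EtP libraries and far lower in all 3 control libraries. Its levels in control replicates 1 to 3 were 1038, 690 and 733 TPM (the deposited level per length, relative to all transcripts of the library), and in EtP replicates 1 to 3 they were 5692, 6515 and 5187. The groups did not overlap: the lowest EtP library lay above the highest control library. The estimated counts behind these levels were 11564, 6042 and 4740 in control and 43344, 41666 and 40112 in EtP. As a level per length, Ssb averaged 820 ± 190 TPM in control and 5798 ± 670 TPM in EtP (SD, n = 3 each), a ratio of 7.07. The log2 fold change from TMM-scaled counts was 3.20 ± 0.34 (SE). By TPM, Ssb ranked 143, 203 and 183 among all rows in the control libraries and 30, 21 and 30 in the EtP libraries. Of 14373 tested genes, 19 had a log2 fold change at least that of Ssb, Ssb included, which is 0.132%.

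**Figure D1:**
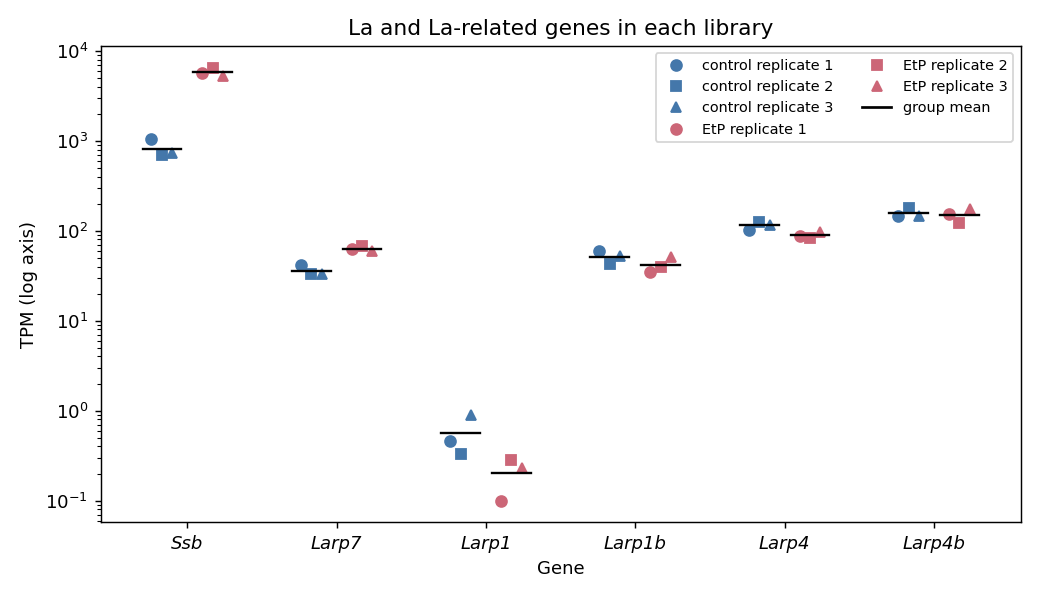
Level in TPM on a log axis (vertical) of 6 members (horizontal); each point is a library, marked by group colour and replicate shape, and bars are group means. The 3 EtP points lie above the 3 control points for Ssb (5187 to 6515 against 690 to 1038 TPM) and Larp7; Larp6 was listed at 0 in all 6 libraries and is not drawn.

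Larp7 was higher in EtP as well, from a much lower level. It had 41.1, 33.2 and 33.1 TPM in the control libraries and 62.5, 67.6 and 59.0 TPM in the EtP libraries, a ratio of means of 1.76. In TPM the groups did not overlap. Its estimated counts did: they were 679, 429 and 299 in control and 697, 640 and 647 in EtP, so that control replicate 1 lay within the EtP range before scaling. Scaled by TMM, the level was 27.6 ± 11.5 in control libraries and 63.9 ± 9.07 in EtP libraries, in counts scaled to a common library size (CPM; SD, n = 3 each), and the log2 fold change was 1.21 ± 0.30 (SE). With library size alone it was 0.50 ± 0.27 (SE), and as a share of all counts the groups overlapped: control replicate 1 had 0.00486% and EtP replicate 3 had 0.00446%. With TMM, a change at least as large was found in 948 of the tested genes, or 6.60%. The ratio of Ssb to Larp7 within a library, in TPM, was 22.7 ± 2.28 in control and 91.8 ± 4.26 in EtP (SD, n = 3 each).

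Control replicate 1 stood apart from the other controls for both genes. It had 694 CPM of Ssb, where control replicates 2 and 3 had 320 and 308, and 40.8 CPM of Larp7, where they had 22.7 and 19.4. Without this library the log2 fold change was 3.78 for Ssb and 1.69 for Larp7. With each of the 6 libraries left out in turn, the values were 3.03 to 3.78 for Ssb and 1.05 to 1.69 for Larp7.

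The mean transcript length of Ssb and Larp7 was shorter in EtP. This length is the deposited length of a gene's transcripts weighted by their estimated abundance, so it moves with the mix of annotated transcripts. For Ssb it was 1030, 900 and 946 bases in control and 839, 823 and 881 bases in EtP, where annotated transcripts range from 634 to 2088 bases. For Larp7 it was 1467, 1269 and 1264 bases in control and 1173, 1159 and 1187 bases in EtP, with annotated transcripts of 411 to 2121 bases. In both genes every EtP library was shorter than every control library. Among 11472 tested genes with 2 or more annotated transcripts, 10.3% had this pattern and the median difference was 1.38 bases. Lengths of the other members overlapped between groups.

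**Figure D2:**
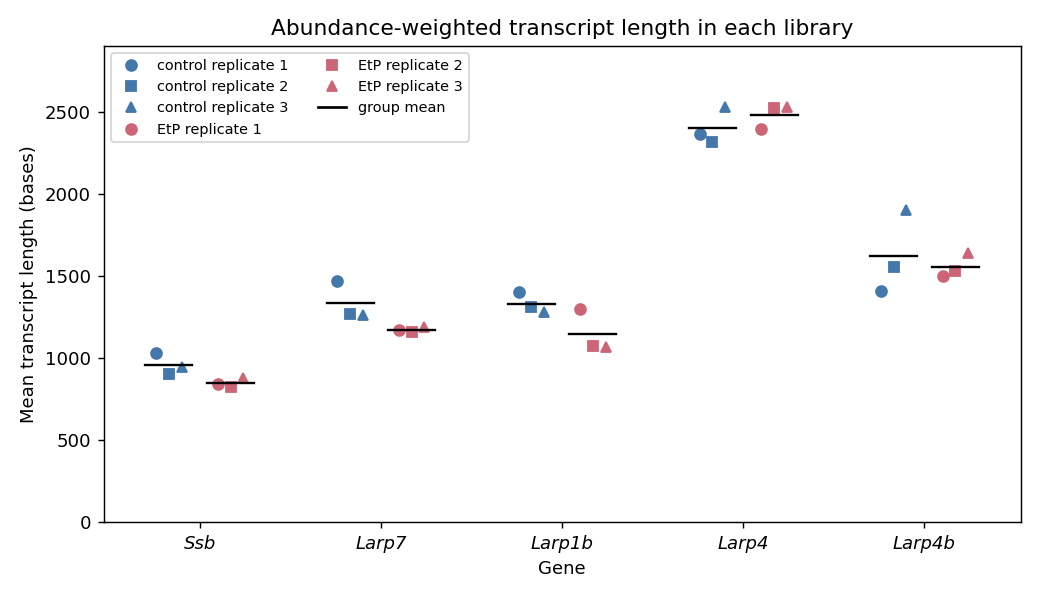
Abundance-weighted mean transcript length in bases (vertical, from 0) of 5 members (horizontal); points are libraries and bars are group means. The EtP points lie below the control points for Ssb and Larp7 and overlap with them for Larp1b, Larp4 and Larp4b.

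The TOP-binding members are Larp1 and Larp1b. Larp1, the mTORC1-controlled repressor of TOP messages, was close to absent, with estimated counts of 9.58, 24 and 24 in control and 7, 10 and 16 in EtP. At this depth its log2 fold change of -0.13 ± 0.48 (SE) is not informative on either direction, and its TPM, 0.33 to 0.89 in control and 0.10 to 0.28 in EtP, did not overlap between groups but rests on these few counts. Larp1b, a paralogue of Larp1, was the better measured of the pair. It had 58.9, 42.6 and 52.9 TPM in control and 35.2, 39.3 and 51.6 TPM in EtP, and the groups overlapped. Its log2 fold change was 0.06 ± 0.27 (SE), and 0.50 without control replicate 1.

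Larp4 and Larp4b had the highest levels after Ssb. Larp4b had 146, 180 and 147 TPM in control and 155, 121 and 173 TPM in EtP, which overlapped. Larp4 had 103, 124 and 117 TPM in control and 87.9, 82.8 and 97.1 TPM in EtP, so every EtP library lay below every control library. After TMM scaling the order of the groups was the opposite for Larp4: 170, 162 and 146 CPM in control and 204, 201 and 202 CPM in EtP. Larp4b in CPM was also higher in every EtP library, with a mean of 206 ± 29.1 CPM against 142 ± 10.1 CPM in control (SD, n = 3 each). The direction of these 2 genes thus depends on the scaling. Their log2 fold changes were 0.35 ± 0.19 and 0.53 ± 0.20 (SE) with TMM, and -0.38 and -0.19 with library size alone.

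Larp6, the collagen-message binder, had a count of 0 in all 6 libraries. Counted over each group, 0 counts allow up to 3, or 0.0752 CPM of the unscaled total in control and 0.0741 CPM in EtP, for counting error only.

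Scaling moved all genes and not the members alone. RNA composition differed between the groups, with TMM factors of 1.198 to 1.385 in control and 0.738 to 0.833 in EtP, and the median log2 fold change of all tested genes was -0.19 with TMM and -0.92 with library size alone, a shift of -0.73. Set against that median, Ssb stood 3.39 higher with TMM, 3.40 with library size alone and 3.44 on log2(TPM + 1). Larp7 stood 1.40, 1.41 and 1.40 above it. Larp4b stood 0.72, 0.72 and 0.52 above it and Larp4 0.53, 0.54 and 0.24. A scaling factor moves each gene and the median alike. The values with TMM and with library size alone are therefore close by construction, and nothing is read from their likeness. With a filter of at least 10 CPM in 3 libraries, Larp4b stood 0.44 and Larp4 0.25 above the median of the genes then tested.

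**Figure D3:**
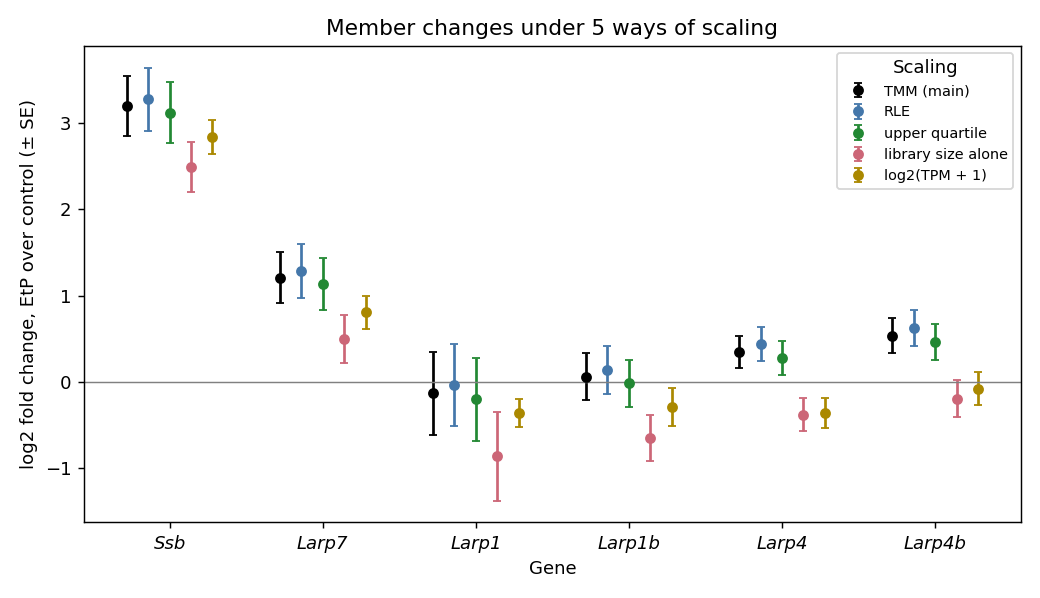
Log2 fold change, EtP over control, with its SE (vertical) for 6 members (horizontal) under 5 scalings (colours), each from 3 libraries a group. Ssb and Larp7 lie above 0 under each scaling, while Larp4 and Larp4b lie above 0 with TMM, RLE and upper quartile factors and below 0 with library size alone and TPM.

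In counts, 2 of the 6 tested members were called higher in EtP (Ssb and Larp7) and 0 lower, where 12.5% of all tested genes were called higher and 18.1% lower (edgeR, adjusted p below 0.05). In CPM, 4 of the 6 had every EtP library above every control library, as 19.0% of tested genes did, and none had every EtP library below, as 27.9% did. In TPM, Ssb and Larp7 had the first pattern, found in 6.74% of tested genes, and Larp1 and Larp4 the second, found in 50.4%.

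Most transcripts of the family came from Ssb in both groups, and nearly all of them in EtP. Ssb made up 74.8%, 64.5% and 67.6% of the family's summed TPM in the control libraries and 94.4%, 95.4% and 93.2% in the EtP libraries. The other members summed to 360 ± 17.4 TPM in control and 344 ± 35.1 TPM in EtP (SD, n = 3 each), and the groups overlapped. Among these La-related transcripts, the share of Larp7 was 11.8%, 8.74% and 9.45% in control and 18.4%, 21.7% and 15.5% in EtP. The order by TPM was Ssb, Larp4b, Larp4, Larp1b, Larp7, Larp1 and Larp6 in each control library, and Larp7 stood above Larp1b in each EtP library. The ratio of Larp7 to Larp1b was 0.70, 0.78 and 0.63 in control and 1.78, 1.72 and 1.14 in EtP. Within each group, neighbours in this order did not overlap in TPM.

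**Figure D4:**
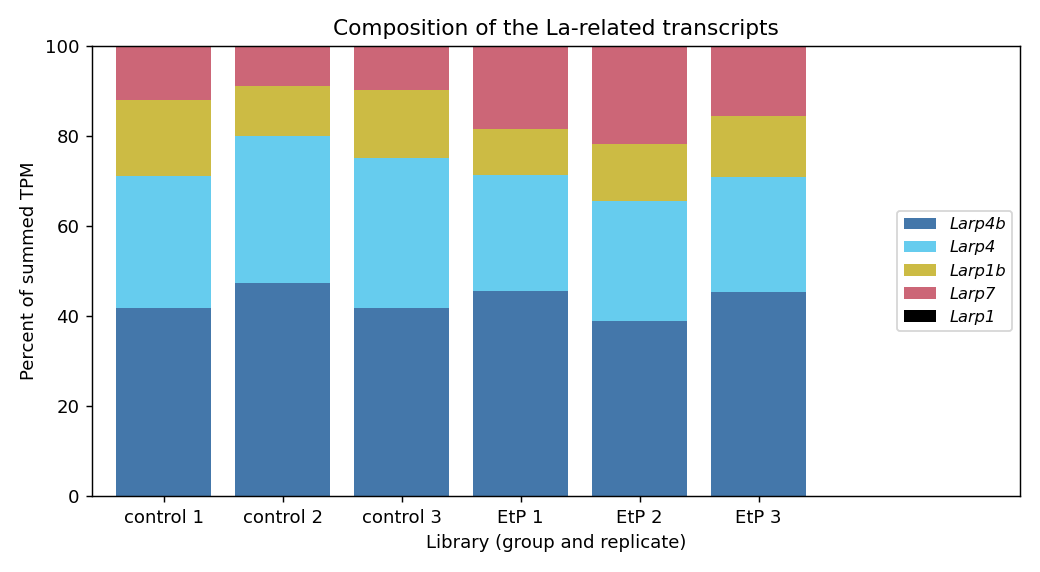
Share of the summed TPM of the La-related members (vertical, percent) in each library (horizontal); Larp1 is too low to be seen. The Larp7 part is 8.74% to 11.8% in control and 15.5% to 21.7% in EtP, while Larp4b holds 39.0% to 47.3% in all 6.

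Some reads of the members could belong to neighbours or copies, since the protocol does not mark strand. Mettl5 overlaps Ssb by 649 bases on the opposite strand and had 18.0 to 55.1 counts in control and 9 to 16 in EtP, far below Ssb. Gm42436 overlaps Larp1b by 3656 bases on the same strand and had 25.3 to 28.9 counts in control and 8.36 to 22.0 in EtP. Gm42437 lies opposite Larp1b over 923 bases and had 119, 54.6 and 33.6 counts in control and 16, 10.8 and 14.95 in EtP, beside 925, 572 and 485 counts of Larp1b in control and 440, 342 and 506 in EtP. Its count was highest in control replicate 1, the library whose removal moved Larp1b most, and its part in that value was not tested. The 5 microRNA genes of the Mir302 and Mir367 cluster that lie within Larp7 on the opposite strand had no count. Larp1 has a processed copy, Gm16425, which is 93.1% identical over 3063 bases and had 11.4, 3 and 3 counts in control and 0 in EtP, so that the few counts of Larp1 are uncertain. The copies of Larp4 (Gm14373 and Gm8177) had at most 9.14 counts in any library.

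Total counts per library were 11173295 to 14737152 and did not separate the groups (exact two-sided permutation test, p = 0.8), while genes with at least 1 count numbered 26056 ± 73.5 in control and 19558 ± 208 in EtP (SD, n = 3 each; exact permutation p = 0.1, the smallest that 3 against 3 allows). Of 12 oocyte and early embryo markers, 9 were higher and 0 lower in EtP (edgeR, adjusted p below 0.05), 4 of them also with library size alone. Their summed level was 7606 to 11540 CPM in control and 25050 to 27930 CPM in EtP; Bmp15, an oocyte growth factor, was at 3002 ± 254 and 10370 ± 467 CPM (SD, n = 3 each). The part that stored messages have in the levels of Ssb and Larp7 was not tested. Markers of cumulus and granulosa cells, which surround the egg, summed to 18.3 to 44.5 CPM in control and 17.6 to 19.6 CPM in EtP. Most of this was Cyp19a1, at 22.2 ± 11.7 and 17.1 ± 1.42 CPM (SD, n = 3 each), which did not pass (edgeR adjusted p = 0.436). Of the 5 tested, 3 were lower in EtP and none higher. These were Ptgs2, Tnfaip6 and Fshr, with control means of 1.03 to 1.86 CPM. Ptx3 and Amh had no count. Both groups are labelled as the early 2-cell stage. CPM and TPM are relative to the library, so a change in RNA per embryo cannot be read from them.

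Genes around the family were taken from 9 lists, in which 139 genes were tested. In all, 21 were higher and 26 lower in EtP, and their median log2 fold change was -0.28, beside -0.19 for all tested genes. With library size alone, 10 were higher and 80 lower, and on log2(TPM + 1) 10 and 67, so that the number of lower genes in each list below depends on the scaling. Over all tested genes, 12.5% were higher and 18.1% lower with TMM. Of the same 14373 genes, 545 were higher and 7617 lower with library size alone, and 694 and 6165 on log2(TPM + 1). The counts of each list under those scalings are to be read beside these. Lists were drawn up with earlier results of these data known, and no list is called different from other genes.

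**Figure D5:**
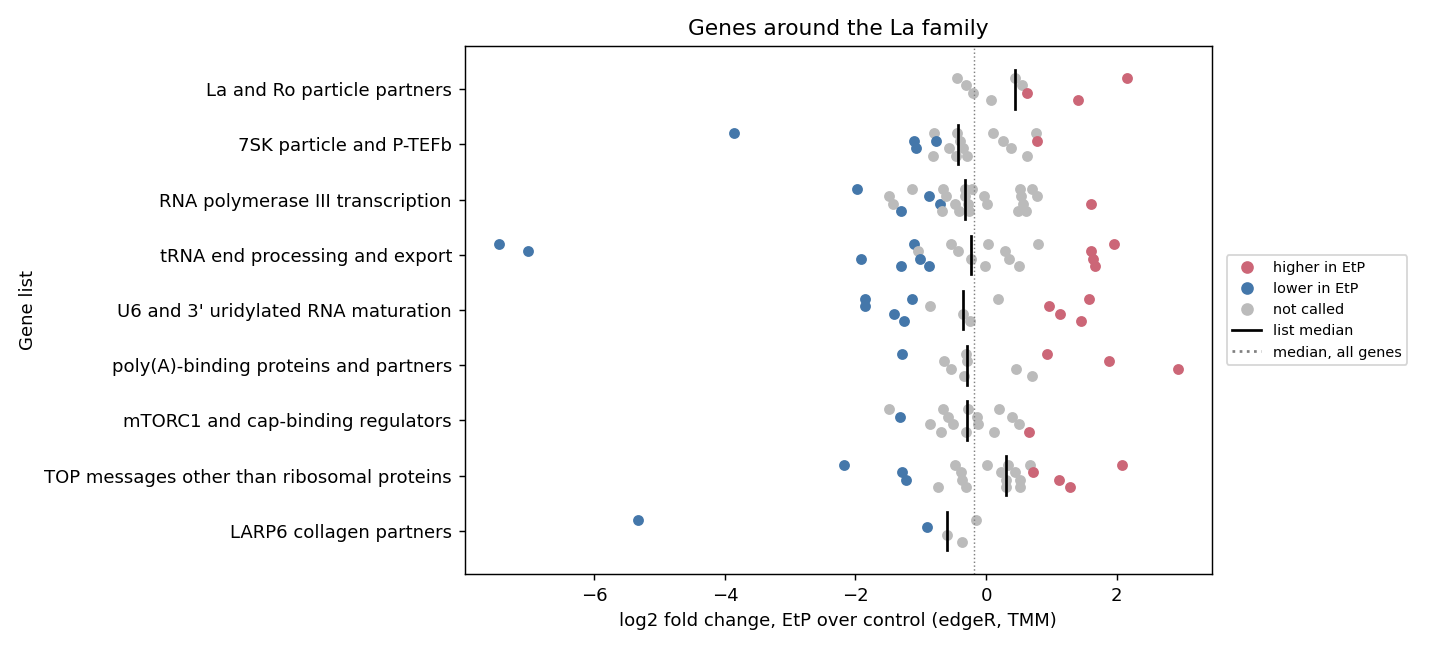
Log2 fold change, EtP over control (horizontal), of each tested gene in the 9 lists (vertical); colours give the edgeR call, black bars the list median and the dotted line the median of all tested genes, -0.19. The list medians run from -0.59 to 0.45, and calls in both directions are found in 7 of the 9 lists.

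Of 9 tested partners of La and Ro, 3 were higher and 0 lower with TMM; the median was 0.45. With library size alone 2 were higher and 2 lower, with the median at -0.30. The number lower was 1 on log2(TPM + 1), with no filter on low counts and in 4 of the 6 fits that left out a library. Matr3, a nuclear matrix RNA-binding protein, had 258.7 ± 23.8 CPM in control libraries and 1151 ± 74.0 CPM in EtP libraries (SD, n = 3 each; log2 fold change 2.15 ± 0.20, edgeR adjusted p = 3.96e-05). Ncl, the nucleolar protein nucleolin, had 142 ± 33.7 and 376 ± 8.85 CPM (1.41 ± 0.22, edgeR adjusted p = 0.00114). The call of Hnrnpk (0.63 ± 0.20, edgeR adjusted p = 0.0321) was lost in 10 of the alternatives, and its direction turned with library size alone. Puf60, a splicing factor, did not pass (0.55 ± 0.29, edgeR adjusted p = 0.174). Ro60, the Ro protein itself, had 6.60 ± 0.81 CPM in control and 5.75 ± 2.10 CPM in EtP and did not pass (edgeR adjusted p = 0.674).

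Of 18 tested genes of the 7SK particle and P-TEFb, in which LARP7 acts, 1 was higher and 4 were lower with TMM, and the median was -0.42. Scaled by library size alone, 0 were higher and 12 lower (median -1.17), and on log2(TPM + 1) 0 and 7. Rbm7, an RNA-binding subunit of the nuclear exosome targeting complex that also binds 7SK, fell by 1.07 on the log2 scale (SE 0.22), from 92.4 ± 9.39 to 43.9 ± 7.63 CPM (edgeR adjusted p = 0.00474). Hexim1, which holds P-TEFb on 7SK, had 1.05 ± 0.13 CPM in control libraries and 0.0643 ± 0.111 CPM in EtP libraries (edgeR adjusted p = 0.00468). It lies near the floor, with no count in EtP replicates 2 and 3. The size of its log2 fold change is uncertain, at -6.91 to -0.57 over the alternatives. Its relative Hexim2 did not pass. Mepce, which caps 7SK (edgeR adjusted p = 0.0493, lower), Srsf1 (0.0442, lower) and Ccnt1, the cyclin of P-TEFb (0.0213, higher), each lost their call when single libraries were left out. Mepce also lost it with RLE factors, no filter on low counts and DESeq2, and Srsf1 with RLE factors, limma-voom and log2(TPM + 1). Ccnt1 also lost it with library size alone, on log2(TPM + 1) and with a filter of at least 10 CPM in 3 libraries. Cdk9, the kinase, had 3.55 ± 1.82 and 2.59 ± 0.43 CPM and did not pass (edgeR adjusted p = 0.459).

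Of 27 tested genes of RNA polymerase III transcription, the source of the new transcripts that La binds, 1 was higher and 4 were lower with TMM; the median was -0.32. With library size alone 1 was higher and 19 were lower (median -1.03), and on log2(TPM + 1) 1 and 17. The higher gene was Brf2, a subunit of the initiation factor used at U6 and 7SK promoters, with 32.4 ± 7.95 CPM in control and 99.0 ± 10.4 CPM in EtP (1.61 ± 0.24, edgeR adjusted p = 0.000865). Snapc5, a subunit of the complex that binds those promoters, was lower, with 14.5 ± 5.71 and 5.84 ± 0.74 CPM (edgeR adjusted p = 0.0121), and this call was lost without EtP replicate 2 or without EtP replicate 3. Polr3c, a polymerase subunit, was lower at an edgeR adjusted p of 0.0492 that was lost when single libraries were left out. Its call was also lost with RLE factors, with no filter on low counts, with DESeq2 and with limma-voom. Polr3a, the largest subunit, did not pass (0.50 ± 0.20, edgeR adjusted p = 0.0892).

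Genes that process tRNA ends split in both directions, with 4 of 21 higher and 7 lower and a median of -0.23 with TMM. Scaled by library size alone, 3 rose and 11 fell past the threshold. Trnt1, which adds CCA to tRNA 3′ ends, had 115 ± 26.6 CPM in control and 348 ± 49.5 CPM in EtP (1.60 ± 0.23, edgeR adjusted p = 0.000716). The subunits of RNase P, which trims tRNA 5′ leaders, did not move together. Pop1 (1.67 ± 0.22, edgeR adjusted p = 0.000371) and Rpp38 (1.96 ± 0.33, edgeR adjusted p = 0.00159) were higher, while Pop4, Rpp14, Rpp25 and Rpp30 were lower (edgeR adjusted p = 0.0173, 0.0172, 0.00065 and 0.0256). The calls of Pop4, Rpp14 and Rpp30 were lost when single libraries were left out, and Rpp25 had no count in any EtP library. The RNA subunit of the enzyme, Rpph1, had 41.4, 54.6 and 29.0 counts in control and 4, 7 and 2.12 in EtP (edgeR adjusted p = 0.00553). Rpph1 is an RNA polymerase III transcript, and the libraries were primed with oligo-dT. Its few counts therefore need not follow its level, and it was looked up after other values had been seen. Clp1, an RNA kinase of tRNA splicing and of messenger 3′ end formation, was close to absent in EtP: it had 184, 201 and 295 counts in control and 1 in each EtP library. Scaled by TMM, the ratio of control to EtP was 140, with a 95% interval of 47.6 to 679 for counting error only (edgeR adjusted p = 7.57e-06).

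Among 13 tested genes for the maturation of U6 and other RNAs with uridines at the 3′ end, 4 passed the test as higher and 5 as lower with TMM (median -0.36), and 1 and 8 with library size alone. The 5 lower genes were all members of the Lsm2 to Lsm8 ring, which takes over the U6 3′ end after La. Lsm3 had 63.7 ± 33.0 CPM in control libraries and 17.7 ± 3.29 CPM in EtP libraries (SD, n = 3 each; -1.85 ± 0.35, edgeR adjusted p = 0.00325). Lsm6 had 63.3 ± 19.3 and 17.6 ± 1.91 CPM (-1.85 ± 0.27, edgeR adjusted p = 0.000649). Lsm2, Lsm7 and Lsm8 were lower too (edgeR adjusted p = 0.00788, 0.0162 and 0.00912), each losing its call without EtP replicate 1 and Lsm7 also without EtP replicate 3, and Lsm4 and Lsm5 did not pass. The 4 higher genes act on U6 or add uridines to RNA: Mettl16, which methylates U6 (1.58 ± 0.23, edgeR adjusted p = 0.000677), Sart3, which recycles U6 particles (1.46 ± 0.26, edgeR adjusted p = 0.00238), and the uridylyltransferases Tut1 and Tut7 (edgeR adjusted p = 0.0195 and 0.00665). All 4 lost the call on log2(TPM + 1), and Sart3, Tut1 and Tut7 also with library size alone. Tut1 lost it too without EtP replicate 1, without EtP replicate 3 and with a filter of at least 10 CPM in 3 libraries.

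Poly(A)-binding proteins and their partners, the list around LARP4 and LARP4B, held the largest increase of the 9 lists. Pabpn1l, a poly(A)-binding protein of oocytes, had 37.5 ± 7.75 CPM in control libraries and 287 ± 47.8 CPM in EtP libraries (SD, n = 3 each; 2.94 ± 0.25, edgeR adjusted p = 2.17e-05). Gspt2, a translation termination factor and close copy of Gspt1, had 32.9 ± 6.16 and 122 ± 11.8 CPM (1.89 ± 0.23, edgeR adjusted p = 0.000211). Paip1, which binds poly(A)-binding protein, had 780 ± 127 and 1485 ± 124 CPM (0.93 ± 0.21, edgeR adjusted p = 0.0072), a call lost with library size alone and on log2(TPM + 1). Of the 11 tested, 1 was lower: Pabpc1, with 3.55 CPM in control and 1.45 in EtP, whose call was lost when single libraries were left out. The median of the list was -0.29, and with library size alone 2 were higher and 6 lower.

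Of 16 mTORC1 and cap-binding genes, regulators around LARP1, 1 was higher and 1 lower with TMM, where the median was -0.29. Scaled by library size alone, 0 were higher and 10 lower, and on log2(TPM + 1) 0 and 8. Tbc1d7, a subunit of the TSC complex that restrains mTORC1, was lower, with 8.15 ± 1.98 CPM in control and 3.25 ± 0.46 CPM in EtP (edgeR adjusted p = 0.00809). Rps6kb1, a kinase downstream of mTORC1, was higher at an edgeR adjusted p of 0.0302 that was lost in 8 alternatives, and its direction turned with library size alone and in TPM. Mtor itself did not pass (0.50 ± 0.35, edgeR adjusted p = 0.301).

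TOP messages other than those of ribosomal proteins had a median of 0.30 with TMM, with 4 of 21 higher and 3 lower. With library size alone, 1 was higher and 9 lower and the median was -0.46, and on log2(TPM + 1) 2 were higher and 8 lower. The median of all tested genes was -0.19 with TMM and -0.92 with library size alone, below that of the list in both. Eif3e, an initiation factor subunit, had 33.6 ± 16.2 CPM in control and 142 ± 11.1 CPM in EtP (2.08 ± 0.32, edgeR adjusted p = 0.0009). Npm1, the nucleolar protein nucleophosmin, had 1742 ± 743 and 4244 ± 571 CPM (1.28 ± 0.30, edgeR adjusted p = 0.00841), a call lost with library size alone; it has many processed copies, so its counts are uncertain. The lower genes were Pabpc1, described above, and the small nucleolar RNA host genes Snhg1 and Gas5. Snhg1 had 11.3 ± 2.19 and 2.49 ± 0.17 CPM (-2.17 ± 0.29, edgeR adjusted p = 0.000411), and Gas5 48.6 ± 21.7 and 20.7 ± 2.08 CPM (-1.23 ± 0.31, edgeR adjusted p = 0.0123), a call lost without EtP replicate 1 or without EtP replicate 3. Partners of LARP6 in collagen synthesis had 0 of 5 higher and 2 lower with TMM (median -0.59) and 5 lower with library size alone. Of these, Strap lost its call with RLE factors, with limma-voom and when single libraries were left out. Vim had a mean of 1.63 CPM in control libraries and 0.0368 CPM in EtP libraries.

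The genes whose levels followed Ssb and Larp7 most closely over the 6 libraries were found by Pearson's r of log2(CPM + 1) among 5976 genes. All points share the difference between the 2 groups, so r is a description. For Ssb these included Psmd12 (0.9998), Gpatch11 (0.9994), Ccdc59 (0.9992) and Psma7 (0.999). Psma7, a proteasome subunit, had 255, 140 and 118 CPM in control and 1625, 1741 and 1324 CPM in EtP, with control replicate 1 the highest control, as for Ssb. For Larp7 they were Tmed10, Npm1, Spopl, Prdx2 and Mrpl47, with r from 0.9964 to 0.9979. Ssb and Larp7 had an r of 0.966 with each other, and 505 and 387 genes had an r of at least 0.95 with Ssb and with Larp7.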

How the data were processed

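Per the labels' protocols, cDNA of polyadenylated RNA was made by Smart-seq2 and sequenced from both ends. The submitters' processing notes name cutadapt 1.16, STAR and the build mm10; for the program that estimated counts, a name is not given in the sources used here. Expected counts as deposited are the authors' estimates of fragments per gene and need not be whole: 10.6% to 16.0% of rows were not, within a tolerance of 0.005. They were rounded before testing. The deposited TPM and transcript lengths were made by the authors and used as given. EtP was compared with control by edgeR 4.0.16 in R 4.3.3 (filterByExpr defaults, TMM, robust quasi-likelihood, group as the only term, Benjamini-Hochberg adjustment at 0.05 over 14373 genes). The SE was taken from the fold change and the F statistic of the test. The step was tested on simulated data in which few genes differed between the groups. That test does not bear on the difference in RNA composition seen here. No molecular identifiers mark PCR copies, so intervals cover counting error only. RNA ends and gene positions came from GENCODE M21, which matched all 7 member IDs, promoters from RefSeq, and near copies from blast 2.17.0. Figures were drawn with matplotlib 3.10.9.

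The members and the gene lists were chosen with earlier results of these data known. Named genes were the members, genes that overlap them or are close copies, per pathway list the tested genes with the lowest p (at most 4, averaging 5 CPM or more), per marker list the 2 with the highest mean, and the 5 genes of at least 10 CPM most like Ssb and Larp7. Others (Ro60, Hexim1, Hexim2, Cdk9, Mtor, Pabpc1, Vim, Tut1, Tut7, the remaining Lsm, Pop and Rpp genes and the RNA polymerase III transcripts) were chosen after their values were seen. Not every gene selected in this way is described. Alternatives were other scalings (RLE, upper quartile, library size alone), other filters, DESeq2 1.42.0, limma 3.58.1 on voom values and on log2(TPM + 1), the ratio of mean TPM, a replicate block and leaving out each library.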

Additional observations from a re-analysis of the deposited data

How the results depend on the processing

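Ssb and Larp7 kept their direction in all 16 alternatives, Larp1 in 12 of 15 (it was not tested with at least 10 CPM in 3 libraries), Larp1b in 9 of 16, and Larp4 and Larp4b in 13 of 16 each. With library size alone, 545 genes were higher and 7617 lower, in the 9 lists 10 and 80, and log2 fold changes were 2.49 (Ssb), 0.50 (Larp7), -0.86 (Larp1), -0.65 (Larp1b), -0.38 (Larp4), -0.19 (Larp4b), -0.089 (Hnrnpk, turned) and -0.065 (Rps6kb1, turned). With limma on log2(TPM + 1), 694 were higher and 6165 lower, in the lists 10 and 67, and values were -0.36 (Larp4), -0.078 (Larp4b) and -0.024 (Rps6kb1, turned); the ratio of mean TPM gave -1.46 (Larp1), -0.36 (Larp4) and -0.070 (Larp4b). A filter of at least 10 CPM in 3 libraries, which tests fewer genes, left 978 higher and 1454 lower, with Larp4 at 0.093 and Larp4b at 0.28. Larp4 was 0.43 with RLE factors and with DESeq2. Leaving out 1 library gave 1096 to 2637 higher and 1659 to 2887 lower genes (lowest without EtP replicate 1, highest without control replicate 1), in the lists 14 to 32 and 13 to 33; the ranges were 3.03 to 3.78 (Ssb), 1.05 to 1.69 (Larp7), -0.34 to 0.19 (Larp1), -0.041 to 0.50 (Larp1b), 0.33 to 0.49 (Larp4) and 0.50 to 0.69 (Larp4b). The cause of these movements was not tested.

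With the replicate block, 2295 genes were higher and 3022 lower, and Ssb and Larp7 were at 3.29 and 1.27. Deviations of same-numbered libraries had correlations of 0.18, 0.01 and 0.36, and those of differently numbered libraries ran from -0.305 to 0.152. The same-numbered values for replicates 1 and 3 were thus the highest. The labels do not state that the numbers mark pairs, so the main test had no block. Whether they mark a shared batch was not tested. Depth limits Larp1, at 7 to 24 counts a library, and Larp6, at 0.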
